A study of Rattus norvegicus with 16 samples.

Results

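The keratin and junction set comprised the genes for keratins, claudins, cadherins, connexins, the zonula occludens proteins, the epithelial membrane proteins (Emp1 to Emp3), occludin, vimentin and Epcam. Members were picked by a rule on the gene name, chosen with earlier results of these data known, and 112 genes read by 121 probes were found among the 26269 genes and 30367 probes of the array. The set held 44 keratins, 22 claudins, 21 cadherins, 16 connexins, 3 epithelial membrane proteins, 3 zonula occludens proteins and the single genes Ocln, Vim and Epcam.

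Expression was measured in H35 cells, a rat hepatoma line, on 16 one-color Agilent arrays, with 4 biological replicates in each of 4 groups. CN-10 was a stable clone with a negative control shRNA plasmid and served as the control. Clone 4-18 stably carried the shRNA4 plasmid and clone 3-44 the shRNA3 plasmid, both directed against Pdrg1. The shRNA3T group was a pool of H35 cells transiently transfected with the shRNA3 plasmid and enriched with G418. All 4 groups therefore had a plasmid and had been exposed to G418, and untransfected cells were not analysed here. Per the paper, the stable clones went through a further selection at a higher G418 dose and were isolated as clones. Comparisons of shRNA3T with a stable clone therefore also differ in selection and in pool against clone, and these effects cannot be told apart. Each stable group was 1 clone, so an effect of the plasmid and a property of that clone cannot be told apart. The question addressed was whether genes of epithelial state and cell contacts differed between cells with and without Pdrg1 silencing.

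Keratins form intermediate filaments as pairs of a type I and a type II chain, and Krt8 with Krt18 is the pair of hepatocytes, whereas Krt7 and Krt19 are typical of bile duct cells. Claudins and occludin form the sealing strands of tight junctions, which the zonula occludens proteins link to actin. Cadherins hold neighboring cells together through calcium-dependent binding, connexins build gap junction channels, and the epithelial membrane proteins are small tetraspan proteins of the claudin-related family.

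Probe sequences are shown for 4 of the genes on which the results turn, as the array files give them, 5′ to 3′ in lower case, to show what was hybridized. Each of these probes has at least 1 reading frame without a stop codon. The Krt8 probe spans 983 bases of the genome, and therefore more than 1 exon.
Emp3: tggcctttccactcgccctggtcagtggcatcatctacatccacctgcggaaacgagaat
Cldn2: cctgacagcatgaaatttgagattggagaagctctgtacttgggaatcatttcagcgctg
Tjp3: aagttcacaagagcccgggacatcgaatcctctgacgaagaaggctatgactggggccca
Krt8: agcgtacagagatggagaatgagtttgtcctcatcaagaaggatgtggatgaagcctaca

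In the rn4 coordinates of the array files these probes lie at chr1:96389823-96389882 on the minus strand (Emp3), chrX:127546789-127546848 on the plus strand (the dimmer of the probes for Cldn2), chr7:9929908-9929967 on the plus strand (Tjp3) and chr7:140716967-140717949 on the minus strand (Krt8). The probe for Emp2 lies at chr10:5347960-5348019 on the plus strand and holds the letters AATAAA, the polyadenylation signal, as do 10 of the 121 probes of the set (8.26%) and 8.39% of all probes. Of the 121 probes, 1 shared a run of at least 20 bases with a probe of another gene name, the Krt18 probe, which has 24 bases in common with a probe for LOC683212. Transcript annotation of that build was not used here, and no exon is assigned to a probe.

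Emp2 was the member called in every comparison with the control, and the 250 bases before its start are shown for that reason, from RefSeq on the GRCr8 build, chr10:5866619-5866868, plus strand. Capitals mark GC boxes (GGGCGG, read on both strands).
Emp2 promoter: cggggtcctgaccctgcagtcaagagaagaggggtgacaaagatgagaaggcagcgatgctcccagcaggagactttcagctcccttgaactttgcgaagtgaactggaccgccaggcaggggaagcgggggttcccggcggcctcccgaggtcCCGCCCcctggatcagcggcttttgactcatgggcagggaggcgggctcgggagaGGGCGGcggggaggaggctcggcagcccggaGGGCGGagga

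The window held 3 GC boxes, a motif found in 30.5% of the 33469 promoters of the same length, and had a GC content of 67.2% against a median of 51.2%. No E-box (CANNTG, both strands) was in it, whereas 65.5% of all promoters had at least 1. The matching windows of Emp1 and Emp3 had 1 GC box and 1 E-box each.

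The silenced gene itself, Pdrg1, read 13.41 to 13.88 in CN-10 on the log2 scale, 11.57 to 13.34 in 4-18, 11.89 to 12.95 in 3-44 and 12.39 to 12.97 in shRNA3T. Every silenced array was below every control array, with 1.70, 1.99 and 1.80-fold lower means, but limma gave adjusted p = 0.129, 0.105 and 0.143. In 4-18, replicate 1 read 11.57 and the other replicates 13.25 to 13.34, so much of that decrease rests on replicate 1. In 3-44, replicate 1 read 11.89 and the others 12.86 to 12.95. Each group was hybridized on its own slide, and an effect of the slide and one of the group cannot be told apart. Arrays of 4-18 were dimmer, with 53.1% to 64.1% of spots well above background against 64.7% to 74.3% on the others. In 4-18 replicate 4, a spot with a local background of 9651 disturbed the background correction. As an alternative, the highest local backgrounds, of 2 spots on this array and 3 on 4-18 replicate 2, were set to the median of their array. This left the number of members called at 4, 1 and 2 in 4-18, 3-44 and shRNA3T against CN-10, and at 4 in 4-18 against 3-44. It gave 1 in place of 0 for 3-44 against shRNA3T. All 10 hepatocyte markers examined were detected throughout at least 1 group. At 2-fold, Ttr was higher and Apoa1, Apob and Tf lower in 4-18, Apoa1 and Ttr were higher in 3-44, and Fgb, Serpina1 and Ttr higher in shRNA3T. These are 40%, 20% and 30% of the markers beside 6.52%, 1.57% and 2.49% of all genes, and their part in the results below was not tested. The defining markers Ptprc (leukocytes), Pecam1 (endothelium) and Epcam (bile duct) were detected on no array.

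Detection limited what could be compared, where detected means that the scanner software called a spot well above background. Of the 112 member genes, 43 were detected in every replicate of 1 group or more, 17 on all 16 arrays, and 31 on none. Over all genes the corresponding numbers were 16475, 11999 and 4503 of 26269. In CN-10, 40 member genes were detected on all 4 arrays, against 18 in 4-18, 31 in 3-44 and 32 in shRNA3T. Levels are log2 intensities after quantile normalization and are compared only for the same probe.

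A gene was called when a probe of it changed at least 2-fold with an adjusted p under 0.05 over all probes (limma, Benjamini-Hochberg). In 4-18 against CN-10, 4 of 112 members (3.57%) were called, with Cdh3 higher and Cdh17, Emp2 and Cldn2 lower, while 6.52% of all genes were. In 3-44 against CN-10 the single call was Emp2, lower, which is 0.893% of the members against 1.57% of all genes. In shRNA3T against CN-10, Emp2 and Emp3 were lower, 1.79% against 2.49% of all genes. The share called was below that of all genes in each of these comparisons after quantile normalization, but not under every scaling (below). The 3 comparisons share the CN-10 arrays.

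At any size, an adjusted p under 0.05 was reached by 18 members in 4-18 (6 higher, 12 lower), 7 in 3-44 (3 higher, 4 lower) and 5 in shRNA3T (1 higher, 4 lower). These are 16.1%, 6.25% and 4.46% of the members, beside 25.4%, 8.8% and 13% of all genes. The median log2 fold change of the members was 0.01, -0.02 and -0.03, and that of all genes 0.00, -0.01 and -0.01. The split for 4-18 depended on the scaling. With the processed signal scaled to its 75th percentile, 11 members were called higher and 12 lower, and with median scaling 9 higher and 5 lower, in place of 1 and 3. These are 20.5% and 12.5% of the members, beside 15% and 12.9% of all genes. With the spot background capped as well, median scaling gave 3 higher and 5 lower (7.14%, beside 7.61% of all genes). For 3-44 the 75th percentile gave 0 higher and 4 lower (3.57%, beside 3.14% of all genes), and for shRNA3T 1 higher and 4 lower (4.46%, beside 5.01%). The members' share was thus above that of all genes for 4-18 and 3-44 under 75th percentile scaling, and for shRNA3T under median scaling (2.68%, beside 2.53%). With the spot background capped as well, the share for shRNA3T under median scaling was 2.68%, beside 2.84% of all genes.

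**Figure D1:**
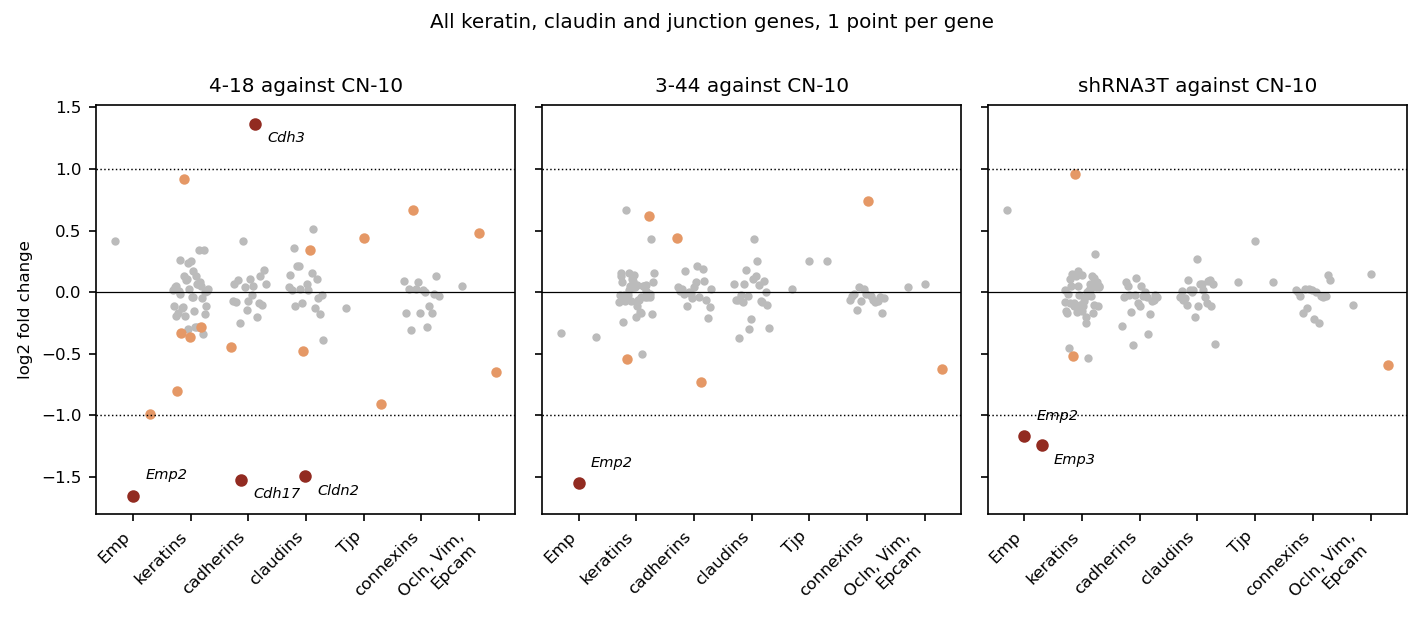
Log2 fold change against CN-10 (vertical axis) of each of the 112 member genes, grouped by family, for 4-18, 3-44 and shRNA3T. Dark red points with names passed both limits, orange points passed the adjusted p only, gray points neither, and dotted lines mark a 2-fold change. Most members lie near 0, and Emp2 is the point below the lower line in all 3 panels.

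**Figure D2:**
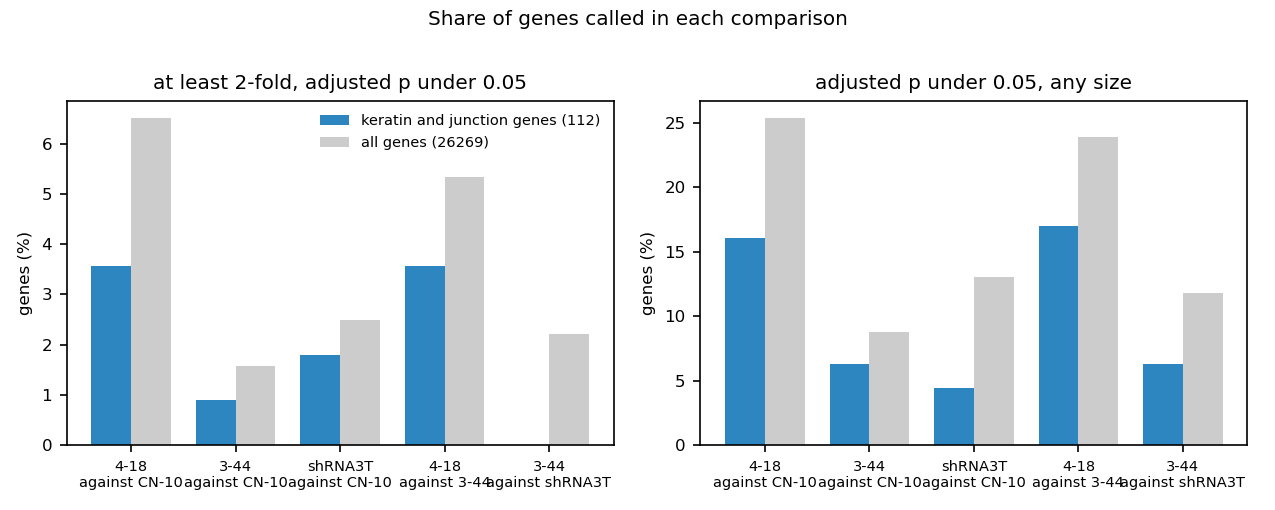
Percentage of the member genes (blue) and of all genes (gray) called in each of the 5 comparisons, with the 2-fold limit (left) and at any size (right). Values are after quantile normalization, where blue bars are lower than gray bars in every comparison, and the 2-fold share of the members is 0 for 3-44 against shRNA3T.

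The epithelial membrane proteins held the only calls of the set in 3-44 and shRNA3T. Emp2, which is known to regulate integrin and caveolin at the cell surface, read 8.61, 8.36, 8.34 and 8.45 in CN-10. It read 6.65, 6.67, 6.96 and 6.87 in 4-18, 6.65, 6.46, 6.60 and 7.86 in 3-44, and 7.15, 7.37, 7.33 and 7.21 in shRNA3T. No silenced array reached the lowest control array, and replicate 4 of 3-44 lay above every other silenced array. Emp2 was detected throughout CN-10 and shRNA3T, but on 2 of 4 arrays in 4-18 and 2 of 4 in 3-44.

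Emp2 fell 3.14-fold in 4-18 (log2 fold change -1.65 ± 0.22, SE, n = 4 per group, limma adjusted p = 6.87e-05), 2.93-fold in 3-44 (-1.55 ± 0.22, adjusted p = 0.000468) and 2.25-fold in shRNA3T (-1.17 ± 0.22, adjusted p = 0.00262). The two-sided exact permutation test gave 0.0286 for each, the smallest p that 4 arrays against 4 allow. Without replicate 4 of 3-44 the difference in that clone was -1.87. With the 75th percentile the log2 differences grew to -3.06, -3.53 and -2.09, the last with adjusted p = 0.0504. On the deposited values, which are not scaled between arrays, the calls in 3-44 (-1.82, adjusted p = 0.0544) and shRNA3T (-1.32, adjusted p = 0.168) were lost. Among the silenced groups Emp2 differed by -0.10 between 4-18 and 3-44 and by -0.38 between 3-44 and shRNA3T, with adjusted p = 0.795 and 0.352. The latter became -0.70 with adjusted p = 0.000526 without replicate 4 of 3-44. Emp2 is on the study's own list of changed genes, so its choice was not independent of these arrays.

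Emp3, a related membrane protein found in many cell types, was detected on all 16 arrays. It read 14.52, 13.97, 14.20 and 14.41 in CN-10 and 13.20, 13.02, 12.97 and 12.96 in shRNA3T. Emp3 fell 2.36-fold in the pool (-1.24 ± 0.13, SE, limma adjusted p = 2.24e-05), and the groups did not overlap. In 4-18 it read 13.49, 13.37, 13.20 and 13.08, a 1.98-fold decrease (-0.99 ± 0.13, adjusted p = 6.92e-05) just short of the 2-fold limit, which it passed without CN-10 replicate 2 (-1.09) or 3 (-1.01) or without 4-18 replicate 1 (-1.06) or 2 (-1.01), and under median scaling (-1.48). In 3-44 it read 14.22, 13.86, 13.87 and 13.70, and the change of -0.36 did not pass (adjusted p = 0.134). Emp3 thus differed between the groups that carry the same shRNA3 plasmid, by 0.88 ± 0.13 in 3-44 against shRNA3T (adjusted p = 0.000566).

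Emp1, the third of the family, did not pass against CN-10 in any group after quantile normalization of all arrays. Its log2 fold change was 0.42 in 4-18, -0.33 in 3-44 and 0.67 in shRNA3T, with limma adjusted p = 0.214, 0.486 and 0.0692. In shRNA3T it passed the adjusted p under several other settings, among them 75th percentile scaling (0.67, adjusted p = 0.0419), array weights (0.77, adjusted p = 0.000685), a fit of the compared groups alone (0.67, adjusted p = 0.0159) and without shRNA3T replicate 1 (0.81, adjusted p = 0.0389). It read 7.68, 8.51, 8.57 and 8.46 in 3-44 and 8.90, 9.45, 9.44 and 9.43 in shRNA3T. These groups did not overlap, and 3-44 was 2-fold below the pool (-1.0 ± 0.22, adjusted p = 0.00936), at the limit but just short of it. It passed the limit with the spot background capped (-1.03) or without shRNA3T replicate 1 (-1.13), among other settings.

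**Figure D3:**
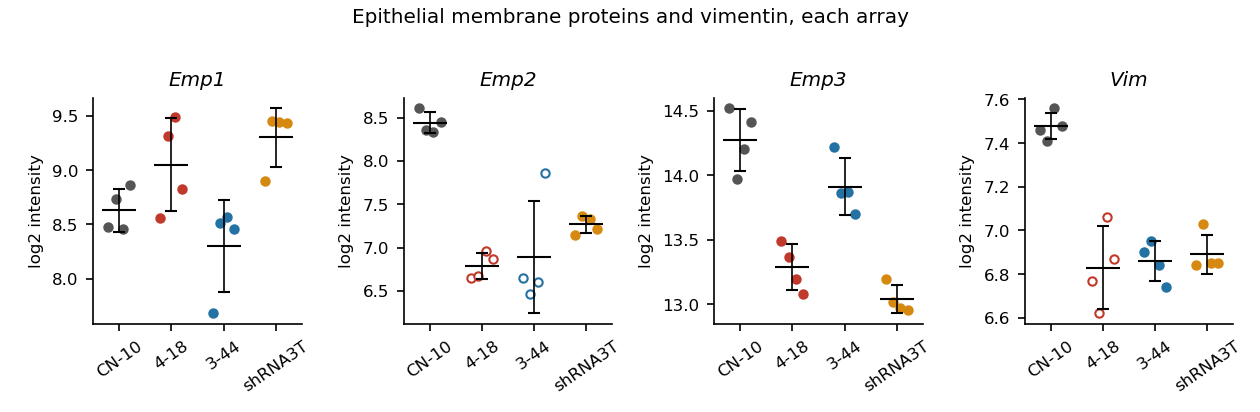
Log2 intensity (vertical axis, not starting at 0) of Emp1, Emp2, Emp3 and Vim on each array, 4 per group. Horizontal bars are means, error bars SD, and open circles mark groups in which the probe was not well above background on all 4 arrays. Emp2 and Vim are lower on all 12 silenced arrays than on the control arrays, whereas Emp3 in 3-44 overlaps the control.

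Vimentin, the intermediate filament protein of mesenchymal cells, was read by a probe spotted 10 times per array. Vim read 7.46, 7.41, 7.56 and 7.48 in CN-10, 6.77, 6.62, 7.06 and 6.87 in 4-18, 6.90, 6.95, 6.84 and 6.74 in 3-44, and 6.84, 7.03, 6.85 and 6.85 in shRNA3T. No silenced array reached the control range. The decreases were 1.57-fold in 4-18, 1.54-fold in 3-44 and 1.5-fold in shRNA3T (limma adjusted p = 7.23e-05, 0.000416 and 0.000405), below the 2-fold limit. Under 75th percentile scaling they were -1.48, -1.54 and -1.56 on the log2 scale and passed it, while under median scaling those in 4-18 and 3-44 (-0.26 and -0.66) and on the deposited values all 3 lost the adjusted p. Desmin (Des), another filament gene of such cells, was among the fibroblast or stellate markers and changed by -1.17, -0.81 and -0.98. Of those 8 markers, Des and Acta2 were lower at any size in 4-18, Des in 3-44, and Des lower and Col1a1 higher in shRNA3T, which are 25%, 12.5% and 25% of the list beside 25.4%, 8.8% and 13% of all genes. Their summed level ranged over 10.25 to 10.38 in CN-10, 10.05 to 10.15 in 4-18, 10.11 to 10.22 in 3-44 and 10.18 to 10.36 in shRNA3T, and 4 of the 8 (Col1a1, Col1a2, Acta2 and Des) were detected throughout at least 1 group, while Dcn and Lum were detected on no array. Their part in the result for Vim was not tested.

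Keratins gave no call at 2-fold by limma in any comparison after quantile normalization, although other settings did give calls. At any size 5 passed in 4-18, 2 in 3-44 and 2 in shRNA3T against CN-10, which are 11.4%, 4.55% and 4.55% of the keratins beside 25.4%, 8.8% and 13% of all genes. An unadjusted p under 0.05 was reached by 9, 4 and 4 keratins (20.5%, 9.09% and 9.09%, beside 36.6%, 21.3% and 24.7% of all genes). Of the 44, 15 were detected throughout a group and 3 on all 16 arrays, namely Krt8, Krt18 and Krt33b. Krt8, the type II chain of the hepatocyte pair, read 13.54, 13.42, 13.22 and 13.27 in CN-10, 12.83, 12.95, 13.26 and 13.05 in 4-18, 13.56, 13.94, 14.07 and 14.36 in 3-44, and 13.36, 13.24, 13.54 and 13.78 in shRNA3T. It rose 1.54-fold in 3-44 (0.62 ± 0.16, SE, limma adjusted p = 0.0239), all 4 arrays lying above the control range, while the changes in 4-18 and shRNA3T were -0.34 and 0.12 (adjusted p = 0.146 and 0.766). With 1 array left out the change in 3-44 held without CN-10 replicate 1 and without replicate 1 or 2 of 3-44, and it lost the adjusted p without any of the other 5 (0.50 to 0.64, adjusted p = 0.0519 to 0.0767). It also did so with outlier spots kept (0.54, adjusted p = 0.0627), with only the compared groups in the fit (0.62, adjusted p = 0.0501), under median scaling (0.65, adjusted p = 0.331) and on the deposited values (0.51, adjusted p = 0.669). Between the clones the difference was larger, 1.94-fold lower in 4-18 than in 3-44 (-0.96 ± 0.16, adjusted p = 0.000402). It passed 2-fold under median scaling (-1.49, and -1.15 with the spot background capped), on the deposited values (-1.59), and without 3-44 replicate 1 (-1.10) or 4-18 replicate 3 (-1.04). On the deposited values Krt8 was also called in 4-18 against CN-10 (-1.08).

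Krt18, the type I partner of Krt8, read 16.70, 16.14, 16.85 and 16.70 in CN-10 and 17.39, 17.11, 17.17 and 17.41 in 3-44. Although these ranges did not overlap, the difference of 0.67 ± 0.24 did not pass (limma adjusted p = 0.114). In 4-18 the arrays spread from 15.96 to 17.36, and the changes in 4-18 and shRNA3T were 0.26 and 0.15 with adjusted p = 0.492 and 0.83.

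Of the bile duct keratins, Krt19 was detected on all 4 CN-10 arrays and on none of the 12 silenced arrays. It read 6.67, 6.91, 7.09 and 6.78 in CN-10, and no silenced array exceeded 6.63. As those levels are bounds, Krt19 was at least 1.16-fold lower in 4-18, 1.42-fold in 3-44 and 1.34-fold in shRNA3T (limma adjusted p = 0.0431, 0.00694 and 0.00527). Under 75th percentile scaling Krt19 was called in all 3 groups (-1.47, -3.41 and -3.06), but these values too rest on silenced arrays without detection and are not measured folds. In 4-18 the sign turned under median scaling, and with 1 array left out the adjusted p held in only 2 of 8 runs, without CN-10 replicate 1 or 4-18 replicate 3 (-0.25 to -0.39 over the runs). Krt7 was above background on 2 of the 16 arrays, both in 3-44, and its log2 fold changes of 0.07, 0.05 and 0.02 did not pass.

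Krt23 and Krt14 lie outside the genes fixed for naming and were picked after their values were seen. Krt23, a type I keratin, read 6.79, 6.76, 7.05 and 6.77 in CN-10 and 6.56, 7.15, 7.11 and 6.66 in 3-44. It read 7.77, 7.53, 8.20 and 7.57 in 4-18 and 7.71, 7.75, 7.90 and 7.87 in shRNA3T, above all arrays of the other groups. Krt23 rose 1.89-fold in 4-18 (limma adjusted p = 0.000473) and 1.95-fold in shRNA3T (adjusted p = 0.000717), and changed by 0.02 in 3-44. Krt14, the type I keratin of basal epidermis, fell 1.74-fold in 4-18 (-0.80 ± 0.19, adjusted p = 0.00683), where 1 of 4 arrays was above background and replicate 4 overlapped the control, and was -0.24 in 3-44 and -0.45 in shRNA3T.

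**Figure D4:**
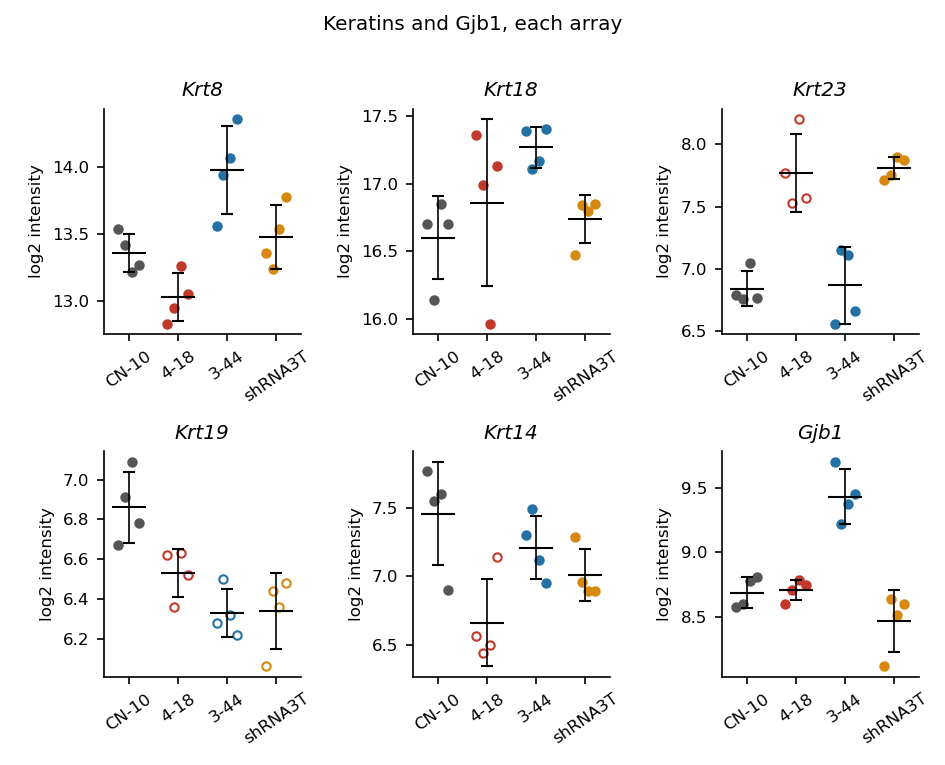
Log2 intensity (vertical axis, not starting at 0) of Krt8, Krt18, Krt23, Krt19, Krt14 and the connexin Gjb1 on each of the 16 arrays. Bars are means, error bars SD (n = 4), and open circles mark groups not well above background on all arrays. Krt8 and Gjb1 are highest in 3-44, Krt23 is high in 4-18 and shRNA3T, and Krt19 is open in all silenced groups.

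Against CN-10, cadherins gave 2 calls, both in 4-18 and in opposite directions (9.52% of the 21, beside 6.52% of all genes). Cdh17, the liver-intestine cadherin, read 14.45, 15.11, 14.75 and 15.18 in CN-10 and 12.75, 13.36, 13.50 and 13.81 in 4-18. Every array of 4-18 was below every control array, and Cdh17 fell 2.87-fold (-1.52 ± 0.28, SE, limma adjusted p = 0.00104). In 3-44 it read 14.07, 15.06, 14.99 and 14.93 and in shRNA3T 13.73, 14.74, 14.70 and 14.63, overlapping the control. The changes there were -0.11 and -0.43, with adjusted p = 0.892 and 0.432. In each group replicate 1 was the lowest array, and that of shRNA3T (13.73) lay below the highest array of 4-18.

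Cdh3, which encodes P-cadherin, moved the other way. It read 7.06, 6.94, 7.27 and 7.07 in CN-10, 8.42, 8.90, 8.32 and 8.17 in 4-18, and 7.10, 7.03, 7.04 and 6.99 in shRNA3T. Cdh3 rose 2.58-fold in 4-18 (1.37 ± 0.12, limma adjusted p = 1.19e-06) and differed by -0.04 in the pool (adjusted p = 0.919). In 3-44 it read 6.29 to 6.40 and was detected on no array, at least 1.64-fold below CN-10 (adjusted p = 0.00147). The clones thus lay on either side of the control.

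Cdh1, or E-cadherin, the classical epithelial cadherin, read 7.05, 6.90, 7.19 and 7.06 in CN-10, 6.52, 6.42, 6.66 and 6.85 in 4-18, 7.60, 7.63, 7.46 and 7.26 in 3-44, and 6.66, 6.78, 6.91 and 6.77 in shRNA3T. It fell 1.35-fold in 4-18 (limma adjusted p = 0.00703), where 2 of 4 arrays were above background, although the sign turned under median scaling and the adjusted p was lost on the deposited values (-0.19). Under 75th percentile scaling it was called at -1.59. It was 1.36-fold higher in 3-44 (0.44, adjusted p = 0.0191). There the adjusted p was lost under 75th percentile scaling (0.82, adjusted p = 0.056), median scaling (0.48, adjusted p = 0.462) and on the deposited values (0.33), and without CN-10 replicate 2 or 3-44 replicate 1 or 2 (0.39 to 0.40). In shRNA3T the difference was -0.27 (adjusted p = 0.127). Cdh2, or N-cadherin, read between 10.23 and 10.59 on all 16 arrays, and its changes of 0.04, -0.01 and 0.12 did not pass (adjusted p = 0.767, 0.974 and 0.446). Of the 21 cadherins, 10 were above background on no array.

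Of the 22 claudins, Cldn2, the claudin that forms cation-selective channels, was the one called, which is 4.55% of the family in 4-18 beside 6.52% of all genes. Its brighter probe, at chrX:127548305-127548364, read 11.63, 11.34, 11.57 and 10.85 in CN-10 and 10.13, 9.91, 10.04 and 9.37 in 4-18. The groups did not overlap, and Cldn2 fell 2.80-fold (-1.49 ± 0.19, SE, limma adjusted p = 3.86e-05). It read 11.42, 11.07, 11.16 and 10.88 in 3-44 and 11.92, 11.51, 11.49 and 11.57 in shRNA3T, changes of -0.22 and 0.27 that did not pass (adjusted p = 0.611 and 0.459). The dimmer probe, whose sequence is given above, read 8.25, 8.82, 8.18 and 8.61 in CN-10 and 7.29, 7.86, 7.98 and 7.90 in 4-18. It fell in the same direction by less, 1.63-fold (-0.71 ± 0.20, adjusted p = 0.0172). Cldn1 was above background on 4 of the 16 arrays and Cldn3 on 2, and neither passed against CN-10 after quantile normalization. Under median scaling Cldn3 was called higher in 4-18 (1.19, adjusted p = 0.00153, in place of 0.51), where replicate 2 read 7.89 after quantile normalization while the others read 6.36 to 6.55, and Cldn1 passed the adjusted p there (0.71, adjusted p = 0.0182, in place of 0.04).

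Among the scaffolds of the tight junction, Tjp3 stood out. It read 13.53, 13.50, 13.50 and 13.48 in CN-10, 13.20, 12.62, 12.24 and 12.31 in 4-18, 14.01, 13.63, 13.73 and 13.64 in 3-44, and 13.83, 13.45, 13.51 and 13.53 in shRNA3T. All 4-18 arrays were below all others. Tjp3 fell 1.88-fold in 4-18 (-0.91 ± 0.17, limma adjusted p = 0.000961), short of the limit, and passed it without replicate 1 of that clone (-1.11). It also passed under median scaling (-1.41, and -1.09 with the spot background capped), on the deposited values (-1.64) and with array weights (-1.02). Over the alternatives the change ranged from -1.64 to -0.57. The changes in 3-44 and shRNA3T were 0.25 and 0.08 (adjusted p = 0.476 and 0.882). Tjp1, the scaffold ZO-1, changed by -0.13, 0.03 and 0.08 and did not pass (limma adjusted p = 0.387, 0.913 and 0.75). Ocln rose 1.40-fold in 4-18, from 10.17 to 10.43 in CN-10 to at least 10.63 in every array of that clone (adjusted p = 0.00211). The adjusted p was lost under median scaling (0.06) and on the deposited unscaled values, where the sign turned (-0.19). In 3-44 and shRNA3T it changed by 0.07 and 0.15 (adjusted p = 0.761 and 0.437).

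**Figure D5:**
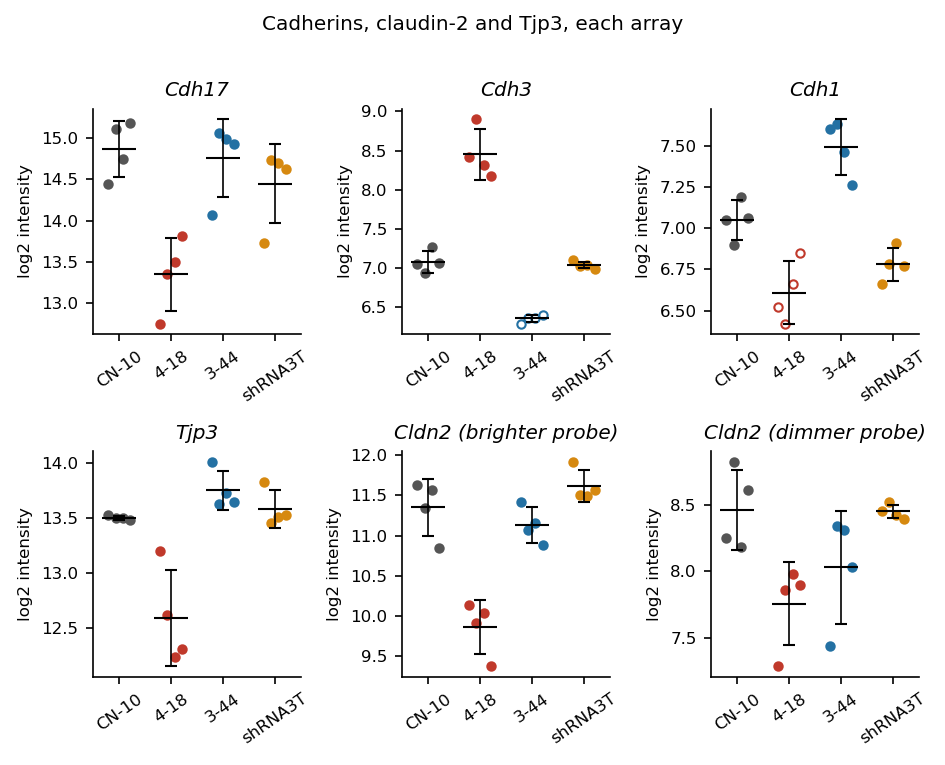
Log2 intensity (vertical axis, not starting at 0) on each array for Cdh17, Cdh3, Cdh1, Tjp3 and both probes of Cldn2. Bars are means, error bars SD (n = 4), and open circles mark groups in which the probe was not well above background on all arrays. Clone 4-18 does not overlap any other group for Cdh3, Tjp3 and the brighter Cldn2 probe, and for Cdh17 it overlaps 1 array of shRNA3T.

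Connexins were mostly near background. Gjb1, which encodes connexin 32, the main gap junction protein of hepatocytes, was the 1 connexin of 16 detected on every array. It read 8.58, 8.60, 8.78 and 8.81 in CN-10, 8.60, 8.71, 8.79 and 8.75 in 4-18, 9.70, 9.22, 9.37 and 9.45 in 3-44, and 8.12, 8.64, 8.52 and 8.60 in shRNA3T. All 3-44 arrays were above all others. Gjb1 rose 1.67-fold in 3-44 (0.74 ± 0.12, SE, limma adjusted p = 0.00114) and changed by 0.02 in 4-18 and -0.22 in shRNA3T (adjusted p = 0.936 and 0.306). Gja1 and Gjb2, for connexins 43 and 26, were above background on no array. Gja5, picked after its values were seen, read 6.98, 6.95, 6.80 and 7.05 in 4-18, where 3 arrays were above background, and was detected on no array of the other groups, so no fold is given.

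The clones were also compared directly. In 4-18 against 3-44, 4 members (3.57%) were called beside 5.33% of all genes. Cdh3 was at least 4.24-fold higher in 4-18, and Cdh17 (-1.41 ± 0.28, limma adjusted p = 0.00204), Cldn2 (-1.27 ± 0.19, adjusted p = 0.000183) and Tjp3 (-1.16 ± 0.17, adjusted p = 0.000137) were lower. The dimmer Cldn2 probe differed by -0.28 (adjusted p = 0.365). Under 75th percentile scaling Cldn2 (-0.86) and Tjp3 (-0.90) fell short of 2-fold, and 12 members were called higher and 4 lower (14.3%, beside 12.1% of all genes). At any size 19 members (17%) passed, 9 higher and 10 lower, beside 23.9% of all genes. In 3-44 against shRNA3T, which carry the same plasmid, limma called no member beside 2.21% of all genes, and 18 members (16.1%) had an unadjusted p under 0.05 beside 25.1% of all genes. At any size 7 members (6.25%) passed beside 11.8% of all genes, among them Cdh1 (0.71, adjusted p = 0.000475), Emp3 and Gjb1 (0.96, adjusted p = 0.000102) higher in 3-44, and Cdh3, Emp1 and Krt23 (-0.94, adjusted p = 0.00111) lower.

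Genes that work with these members were taken from a list of 54 desmosome, adherens junction, tight junction and polarity, and epithelial regulator genes. Those named here beyond Grhl2, Vcl and Plec were picked after their values were seen. At 2-fold, 3 passed in 4-18 (5.56%, beside 6.52% of all genes). At any size 13 passed there, 2 in 3-44 and 7 in shRNA3T, which are 24.1%, 3.7% and 13% beside 25.4%, 8.8% and 13% of all genes. Grhl2, a transcription factor of epithelial cells, read 6.81 to 6.90 in CN-10 and 8.05 to 8.73 in 4-18 and rose 2.81-fold (1.49 ± 0.14, adjusted p = 1.98e-06). Its second probe showed 0.21 (adjusted p = 0.523). Vcl, for vinculin, which couples cadherin junctions to actin, fell 2.06-fold (-1.04 ± 0.12, adjusted p = 1.11e-05), and 2.45-fold by a second probe. The first probe fell just short of 2-fold without CN-10 replicate 3 or 4 or 4-18 replicate 2 (-0.95 to -1.0). Plec, for the keratin-binding linker plectin, fell 2.09-fold (-1.07 ± 0.30, adjusted p = 0.0162), and the call was lost without replicate 4 of 4-18 (-0.83, adjusted p = 0.0504) and without CN-10 replicate 2 or 4 (-0.92 each, adjusted p = 0.0566 and 0.0536). Its second probe fell 1.88-fold.

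In the tight junction and polarity group, 7 of 20 genes rose at any size in 4-18 and none fell (35%, beside 25.4% of all genes), among them Tjap1 (0.98), Magi1 (0.84), Llgl2 (0.76) and Cxadr (0.59). Partner genes other than Grhl2, Vcl and Plec were not examined under the other scalings. Whether this split depends on the scaling was therefore not tested. None of the 20 passed in 3-44, and in shRNA3T Cxadr (0.63) was higher and Pard6a (-0.50) lower. Among 11 desmosome and plakin genes, Plec and periplakin (Ppl, -0.74) fell in 4-18 (18.2% of the list), Pkp2, a plakophilin, fell in 3-44 (-0.91, 9.09%), and Pkp2 (-0.63) and Pkp3 passed in shRNA3T (18.2%), where the probe for Pkp3 (-0.20) was detected on no array of any group. All genes passed in 25.4%, 8.8% and 13% of cases. Of 14 regulators, Esrp2, an epithelial splicing factor, rose in all 3 groups (0.98, 0.45 and 0.43), and Elf3 and Grhl2 also rose in 4-18. The share of regulators passing was 21.4%, 7.14% and 7.14%, below that of all genes (25.4%, 8.8% and 13%). Of the repressors of epithelial genes on that list, Zeb1 was detected on all 16 arrays, with a mean of 9.85 for CN-10 and means of 10.08 for 4-18, 9.73 for 3-44 and 10.06 for shRNA3T, and its differences did not pass (adjusted p = 0.2, 0.685 and 0.342). Snai1 was detected on 3 arrays, all of shRNA3T, Zeb2 on 1 of 3-44, Twist2 on 1 of CN-10, and Snai2 and Twist1 on none.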

How the data were processed

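Per the labels, RNA of 4 biological replicates per group was hybridized to one-color arrays. The authors deposited Feature Extraction 10.7.3.1 output, with spot and local background intensity on a linear scale and not normalized, and a table of log2 values per array whose decimal points were lost. Put back, these equal the normexp-corrected median signal (offset 50) of the deposited spots, without scaling. The authors used limma with limits of 2-fold and an adjusted p of 0.05.

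The scanner intensities were corrected with normexp (offset 50), quantile normalized and averaged per probe in R 4.3.3 with limma 3.58.1, leaving out control and outlier spots. Of the member probes, 8 had 10 spots per array, and every member kept a value on each array. A fit with 1 mean per group covered all 16 arrays and 30367 probes. Spots well above background follow the software's flag, and a probe needed it on at least 0.5 of its spots. The number of arrays limits the precision. A value for a group without any array well above background is a bound, taken against the lowest signal above background on each array.

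Named in the text were 21 genes fixed as a list (1 of them is not reported here), other members and junction partner genes called in any of the 5 comparisons and above background in a compared group (2 and 3 genes), and further members, partner genes and marker genes picked outside this rule after their values were seen, such as Krt23, Krt14, Krt33b, Gja5, Esrp2, Pkp2, Zeb1, Des and the hepatocyte markers. The brightest probe represented a gene. Members and lists were chosen with earlier results of these data known. Of the 121 probes, 110 had an accession in the gene table at hand, and 3 have another symbol there; array names were kept. Positions are rn4. Alternatives were other background corrections, scalings, offsets and filters, a replicate block, array weights, 1.5-fold, single arrays left out, and a capped spot background, the last chosen after seeing the data.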

Additional observations from a re-analysis of the deposited data

Results flagged for a closer look

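Among 25 named genes in 4 groups, 13 of 100 groups of 4 arrays had an array far from the other 3, where chance gives about 1 in 20. Replicate 1 was that array for Emp1 in 3-44 (7.68, others 8.46 to 8.57) and shRNA3T (8.90, others 9.43 to 9.45), for Cdh17 in 3-44 (14.07, others 14.93 to 15.06) and shRNA3T (13.73, others 14.63 to 14.74), for Krt18 in shRNA3T (16.47, others 16.80 to 16.85), and, on the high side, for Krt7 (6.95) and Ocln (10.56) in 3-44. Replicate 4 of 3-44 stood apart for Emp2 (7.86, others 6.46 to 6.65), Cldn1 (6.87) and Tjp1 (11.92). Replicate 2 stood apart for Cldn3 in 4-18 (7.89), Vim in shRNA3T (7.03) and Cldn1 in CN-10 (6.42).

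Differences between the silenced clones, 4-18 against 3-44, passed both limits by limma for Cdh3 (fitted 2.09, to be read as at least 4.24-fold because 3-44 had no array above background), Cdh17 (-1.41), Cldn2 (-1.27), Tjp3 (-1.16), and the partner genes Grhl2 (1.56), Plec (-1.15, and -0.91 without 4-18 replicate 4) and, by its second probe alone, Vcl (-1.19, first probe -0.80), given as log2 fold changes. Slide and clone cannot be told apart in this comparison.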

How the results depend on the processing

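Over the settings tried, no 2-fold call of a named gene changed direction. The number of members called in 4-18 against CN-10 (4) was 23 with 75th percentile scaling, 14 with median scaling, 7 on the deposited unscaled values, 7 with an offset of 16, 2 with probes above background on all 16 arrays, 10 at 1.5-fold, and 8 with the spot background capped and median scaling. In 3-44 against CN-10 (1) it was 4 with 75th percentile scaling, 0 on the deposited values, 2 with an offset of 16, 0 with probes above background on all arrays (which drops Emp2) and 5 at 1.5-fold. In shRNA3T against CN-10 (2) the same settings gave 5, 1, 3, 1 and 4. In 4-18 against 3-44 (4), 75th percentile scaling gave 16, median scaling 9, the deposited values 8, an offset of 16 gave 7 and 1.5-fold 13. In 3-44 against shRNA3T (0) the counts were 4 with 75th percentile scaling, 1 with median scaling, 2 without background subtraction, 4 with an offset of 16, 6 at 1.5-fold and 1 with the spot background capped, under either scaling. Leaving out single arrays gave 4 to 6 members, 1 to 1, 2 to 3, 4 to 5 and 0 to 3 in these comparisons. The last count was 3 without 3-44 replicate 2, 2 without 3-44 replicate 3, and 1 without 3-44 replicate 4 or shRNA3T replicate 1, 2 or 4. Beside 75th percentile scaling the share of all genes was 15%, 3.14%, 5.01%, 12.1% and 3.86% in the 5 comparisons (members 20.5%, 3.57%, 4.46%, 14.3% and 3.57%). With median scaling it was 12.9% for 4-18 against CN-10 and 9.81% for 4-18 against 3-44 (members 12.5% and 8.04%), and on the deposited values 12.1% and 9.61% (members 6.25% and 7.14%). With the spot background capped as well, median scaling gave 7.61% of all genes for 4-18 against CN-10 and 6.33% for 4-18 against 3-44. The members' shares were then 7.14% and 4.46%. Beyond this, the cause of these shifts was not tested. The median log2 fold change of all probes in 4-18 against CN-10 was 0.01, and became 0.20 under 75th percentile and 0.39 under median scaling.

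Below 2-fold, the adjusted p of some further results was lost on the deposited values, for Krt23 in 4-18 and shRNA3T, Gjb1 in 3-44, the dimmer Cldn2 probe in 4-18, Krt23 in 4-18 against 3-44, and Cdh1, Gjb1, Emp1 and Krt23 in 3-44 against shRNA3T, and both there and under median scaling for Krt14 in 4-18, Krt19 and Cdh3 in 3-44, Krt19 in shRNA3T, and Emp3 and Cdh3 in 3-44 against shRNA3T. Other results first passed under an alternative. Under median scaling in 4-18 against CN-10 they included Krt7 (0.76), Epcam (0.94), Gja1 (0.90), Gjb2 (0.81) and Krt8 (-0.84). Of these, Krt7, Epcam, Gja1 and Gjb2 were above background on no array of CN-10 or 4-18, so their values are not measured changes. Emp3 in 3-44 against CN-10 passed under 75th percentile scaling (-0.83) and array weights (-0.35), Krt18 there under array weights (0.63) and with the compared groups alone (0.67), and Cdh1 in shRNA3T under 75th percentile scaling (-0.85).

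With the replicate number as a block the counts were 4, 1, 2, 4 and 0. Deviations of arrays with the same number correlated at -0.112 to 0.443 and those with other numbers at -0.404 to 0.249. In 3-44 against CN-10, 3 of 4 pairs were over 0.1, and in shRNA3T against CN-10 2 of 4 were, where each of the 4 shRNA3T arrays correlated best with the CN-10 array of its own number, a hint from the data. As no comparison had every pair over 0.1, the numbers were not taken as pairs. The dim arrays of 4-18 and the 31 members above background on no array limit the precision.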
